A study of Mus musculus with 20 samples.

Results

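The 42 genes described here are cell cycle genes, chosen by name from the gene abundance tables of bulk RNA sequencing in mouse trunk-like structures and gastruloids. They fall into 20 mitotic genes, 14 S phase genes and 8 genes of the G1 phase and its control, among 54446 gene IDs in the tables. All 42 were present as 1 gene ID each, and all 42 passed the filter of a mean of at least 1 TPM (a transcript abundance per length, with one fixed total in each library), as did 14290 gene IDs in all. The structures were grown from mouse embryonic stem cells of the F1G4 line, which carried the reporters T::H2B-mCherry and Sox2::H2B-Venus in every group. In every group, aggregates received a pulse of 3 µM CHIR99021, an inhibitor of the kinase GSK3 that activates WNT signalling, after 48 h. The first group was collected at 96 h, with 10 pooled structures per library (96h). The other 4 groups were collected at 120 h, with 6 pooled structures per library. They were structures kept without Matrigel (Gastruloid), with Matrigel, a basement membrane gel (TLSMG), with Matrigel and further CHIR99021 (TLSMGC), and with Matrigel, CHIR99021 and the BMP receptor inhibitor LDN (TLSMGCL). Each group had 3 libraries, described as biological replicates. All come from 1 stem cell line, and structures with an asymmetric pole were picked, so the p-values measure the spread between pools of picked structures.

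Cells divide in an ordered cycle in which cyclins switch on cyclin-dependent kinases. In G1, cyclins of the D and E types push cells towards DNA replication by inactivating the retinoblastoma protein and releasing E2F factors, while the inhibitors p21 (gene Cdkn1a) and p27 (Cdkn1b) hold the kinases back. In S phase, the MCM helicase, its loaders, the clamp PCNA and the enzymes that make deoxynucleotides copy the genome. In G2 and mitosis, cyclin A and the B-type cyclins with the kinase CDK1, the Aurora and Polo kinases, the spindle motors and the anaphase-promoting complex condense, align and part the chromosomes. Stem cells and early embryonic cells cycle fast with a short G1, and transcripts of most S phase and mitotic genes are low in cells that have left the cycle.

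Many mitotic genes are read from promoters that hold a CHR element (searched here as TTTGAA or TTCGAA) beside CCAAT boxes, and many S phase genes from promoters with an E2F element (searched as GCGGGAA or GCGCGAA). Promoter windows of 250 bases before to 50 bases after the start were taken from RefSeq on GRCm38.p6 and searched on both strands. Of the mitotic genes, 16 had a window, and 12 of those 16 (75.0%) held a CHR match, against 19.2% of all 32851 windows. A CCAAT match was in 14 of the 16 (87.5%), against 37.4% of all windows. The S phase genes had 12 windows for 11 genes. Of these windows 8 (66.7%) held an E2F match, against 6.0% of all windows and 6.25% of the mitotic windows. A CCAAT match was in 9 of the 12 (75.0%), so it was common in both classes, and a CHR match in 2 (16.7%). The G1 genes had 7 windows for 5 genes. None of these 7 windows held a CHR or an E2F match, and 2 held a CCAAT match. The E2f1 window (chr2:154569377-154569676, minus strand) lay inside the annotated gene, whose outer start is at 154569892, so the bases before that start were not searched. A match describes the letters and shows no binding. Ccnd1, Ccnd2 and Ccne2 had no window. The 250 bases before the start are shown, 5′ to 3′ in the direction of the gene, for 3 mitotic genes whose values are given below (Mki67, Cdk1, Cdc20), 1 S phase gene (Mcm5) and the inhibitor gene Cdkn1a, with the matches in capitals.
Mki67, chr7:135716380-135716629, minus strand: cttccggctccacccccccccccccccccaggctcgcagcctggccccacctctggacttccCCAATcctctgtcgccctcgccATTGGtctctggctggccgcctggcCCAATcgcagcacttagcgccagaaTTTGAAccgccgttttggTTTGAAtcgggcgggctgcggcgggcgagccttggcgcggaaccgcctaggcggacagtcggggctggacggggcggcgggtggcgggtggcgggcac
Cdk1, chr10:69352913-69353162, minus strand: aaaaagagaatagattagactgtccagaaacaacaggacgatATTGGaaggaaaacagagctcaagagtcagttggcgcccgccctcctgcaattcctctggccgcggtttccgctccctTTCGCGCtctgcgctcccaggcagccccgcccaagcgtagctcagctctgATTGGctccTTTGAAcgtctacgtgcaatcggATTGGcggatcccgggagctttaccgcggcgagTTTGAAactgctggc
Cdc20, chr4:118437344-118437593, minus strand: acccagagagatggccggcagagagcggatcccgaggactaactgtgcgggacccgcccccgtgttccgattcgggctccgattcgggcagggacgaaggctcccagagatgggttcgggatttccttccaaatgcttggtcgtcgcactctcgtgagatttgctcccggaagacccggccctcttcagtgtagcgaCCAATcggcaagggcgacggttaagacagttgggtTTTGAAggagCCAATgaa
Mcm5, chr8:75109259-75109508, plus strand: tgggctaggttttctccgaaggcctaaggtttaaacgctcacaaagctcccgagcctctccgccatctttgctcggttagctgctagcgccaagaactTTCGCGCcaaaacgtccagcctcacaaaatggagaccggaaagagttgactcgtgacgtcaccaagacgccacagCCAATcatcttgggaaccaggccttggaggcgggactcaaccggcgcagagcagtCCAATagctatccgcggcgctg
Cdkn1a, chr17:29090729-29090978, plus strand: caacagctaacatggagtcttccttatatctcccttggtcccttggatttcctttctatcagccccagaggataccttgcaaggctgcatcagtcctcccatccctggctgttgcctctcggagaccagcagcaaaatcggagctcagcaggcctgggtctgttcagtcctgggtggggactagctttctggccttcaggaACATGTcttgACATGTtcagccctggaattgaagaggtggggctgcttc
Counted back from the start, Mki67 has CHR matches at -116 to -111 and -98 to -93 and CCAAT matches, on either strand, at 3 places. Cdk1 is the mitotic gene with an E2F match (-130 to -124), beside CHR matches at -71 to -66 and -15 to -10. In Cdc20 the CHR match lies at -18 to -13, next to a CCAAT match at -8 to -4. Of the bases shown, the last 26 of Cdk1, 9 of Cdc20 and 3 of Cdkn1a lie in annotated exons. The Cdk1 CHR match at -15 to -10 and the Cdc20 CCAAT match at -8 to -4 are among these exon bases. Mcm5 holds an E2F match at -152 to -146 and CCAAT matches but no CHR match. In Cdkn1a the capitals mark ACATGT, letters chosen after the sequence was seen, at -49 to -44 and -39 to -34. This gene has 2 windows, of which the first is shown, and window 2 (chr17:29093519-29093818) held no ACATGT. Of all windows, 5.28% held ACATGT at least once and 0.329% at least 2 times.

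Relative depth, as deposited coverage per unit of FPKM in genes with 1 annotated transcript, ran from 3.12 to 6.84 over the 15 libraries, and 13688 to 14494 genes per library reached 1 TPM. Libraries of one group correlated at 0.985 to 0.991 across genes. TPM shares out a fixed total, and over the genes above 0 TPM in all 15 libraries the TLSMG libraries were high as a whole. Their median-of-ratios factors were 1.08, 1.12 and 1.14, those of TLSMGC replicate 3 and TLSMGCL replicate 2 were 0.963 and 0.902, and the other 10 lay from 0.978 to 1.012. Over the genes tested, the median gene was 0.157 lower in TLSMGC than in TLSMG on the log2 scale, and class medians below are given beside the median of all genes. In bulk RNA, fewer cells of a type and less RNA per cell cannot be told apart. Cell type markers differed strongly between the groups. The summed TPM of 8 endothelial markers was 33.7 to 44.2 in Gastruloid, 260 to 315 in TLSMG and 24.2 to 78.9 in TLSMGC, and that of 8 neural tube markers was 386 to 522, 205 to 306 and 58.5 to 73.6 in the same order. For 9 markers of postmitotic neurons, the TLSMG sums lay between 23.5 and 32.0. TLSMGC libraries were lower (16.1, 15.5 and 21.9), while TLSMGCL libraries (24.2, 24.3 and 24.0) fell inside the TLSMG range. Markers of red cells and skeletal muscle summed to at most 2.29. The part of these cell types in the results on cell cycle genes was not tested.

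All 20 mitotic genes, all 8 G1 genes and 11 of 14 S phase genes differed among the 5 groups in limma's moderated F test (adjusted p under 0.05), 39 of 42 in all, beside 73.5% of all genes tested. The exceptions were Cdc6 (a loader of the MCM helicase), Gins2 (a subunit of the active helicase) and Tyms (thymidylate synthase). The span was small for most: the highest group mean was 1.19 times the lowest for Aurkb and Birc5 (both of the chromosomal passenger complex) and 1.99 times for Mki67 (the proliferation antigen Ki-67). It was wider in G1, with 2.23 times for Ccnd1 and for Ccnd3, 2.77 times for Ccnd2 (the 3 D-type cyclins) and 6.15 times for Cdkn1a. TLSMG had the highest mean for 13 of 20 mitotic genes, and no mitotic or S phase gene was highest in TLSMGC or TLSMGCL. One or other of those CHIR99021-treated groups had the lowest mean for 15 of 20 mitotic genes and 11 of 14 S phase genes. These ranks are of TPM, which was high as a whole in TLSMG (median-of-ratios factors 1.08, 1.12 and 1.14). The share of all genes that were highest or lowest in each group is not given here.

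Counts of called genes per comparison (limma on log2(TPM + 1), adjusted p under 0.05 over all genes tested) set the frame for the values that follow. Against 96h, Gastruloid had 7 of 42 cell cycle genes higher and 6 lower, beside 20.8% and 20.5% of all genes. TLSMG had 19 higher and 4 lower than 96h, beside 33.5% and 12.5% of all genes. TLSMGC had 5 higher and 21 lower than 96h, beside 20.6% and 20.1%, and TLSMGCL had 4 higher and 18 lower, beside 17.4% and 22.1%. In TLSMG, 14 were higher and 2 lower than in Gastruloid, beside 31.5% and 7.87%. In TLSMGC, 2 were higher and 30 lower than in TLSMG, beside 10.4% and 30.5%. In TLSMGCL, 2 were higher and 31 lower than in TLSMG, beside 9.31% and 35.6%. Between TLSMGCL and TLSMGC none of the 42 was called, beside 0.406% of all genes higher and 0.777% lower. The first 4 comparisons share the 96h libraries, and 3 of the others share the TLSMG libraries, so their counts are not independent of one another.

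**Figure D1:**
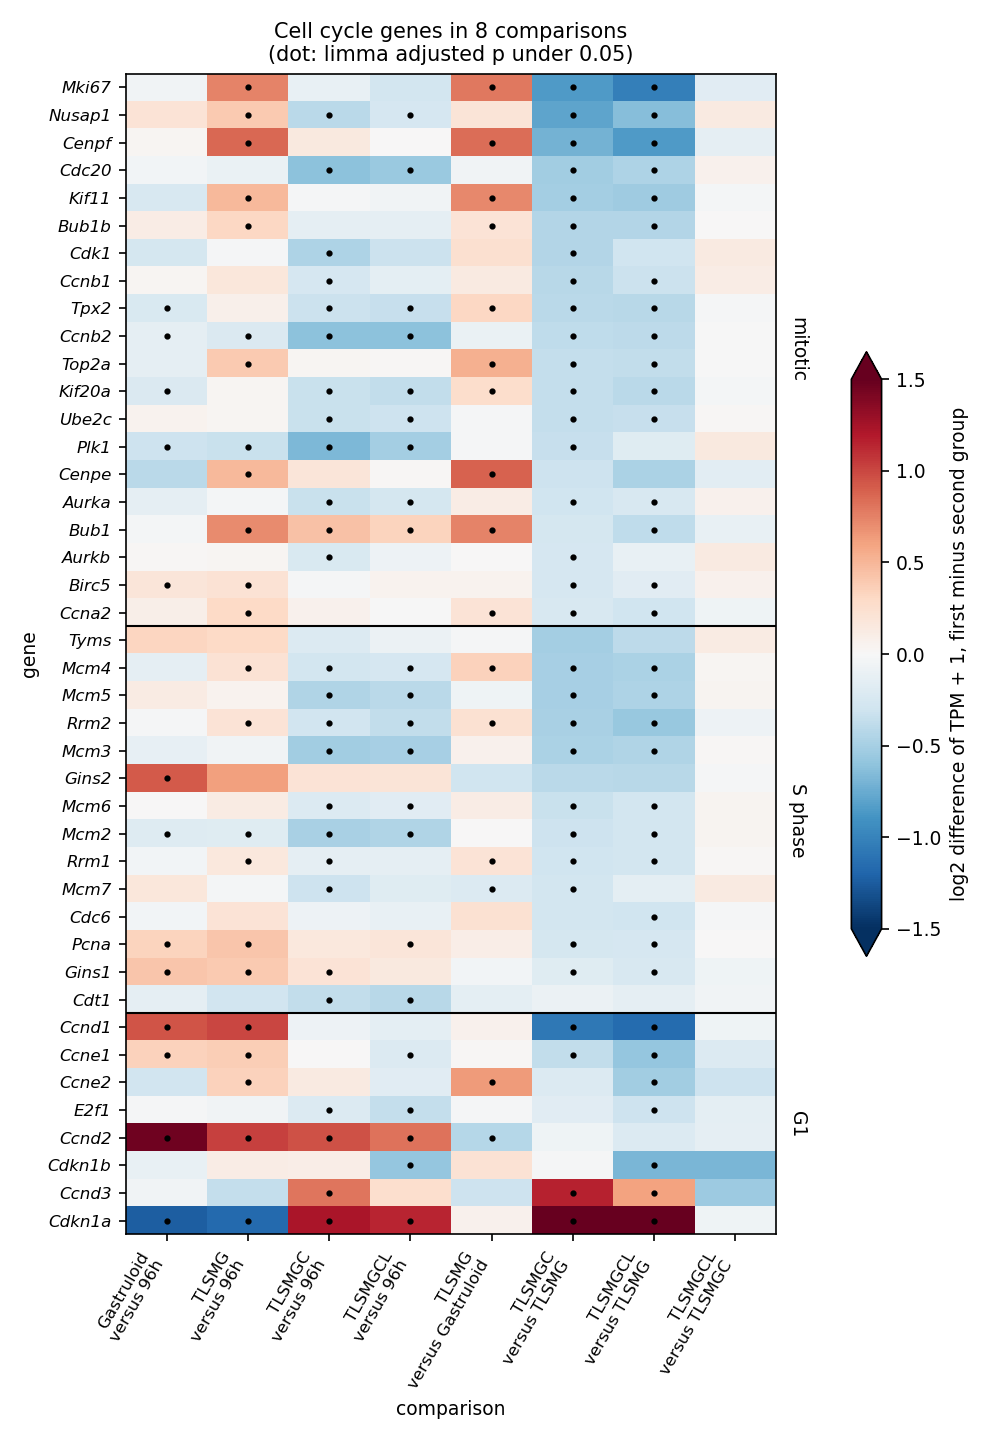
Log2 differences of the 42 cell cycle genes (rows, in their 3 classes) in the 8 comparisons (columns), on the log2(TPM + 1) scale, red for higher and blue for lower in the first-named group, with a dot where the adjusted p was under 0.05. The TLSMGC versus TLSMG column holds 30 dots on blue and 2 on red (Cdkn1a and Ccnd3), and the TLSMGCL versus TLSMGC column holds none.

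The comparison of TLSMGC with TLSMG asks what further CHIR99021 did in Matrigel, and mitotic genes were lower with it. Of 20 mitotic genes 18 fell, none rose and all 20 had a negative difference, with a median of -0.37 against -0.157 over all genes. Mki67 read 122, 161 and 151 TPM in TLSMG and 91.4, 86.9 and 62.3 in TLSMGC. Every TLSMGC library lay below every TLSMG library, and the fall was 0.85 on the log2 scale (SE 0.2, adjusted p = 0.0037). Nusap1, which bundles spindle microtubules, went from 80.8, 89.2 and 95.4 TPM in TLSMG to 53.5, 51.6 and 47.2 in TLSMGC, a log2 difference of -0.79 (SE 0.08, adjusted p = 6.27e-06). The groups do not overlap here either, and the libraries within each lie close together.

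The B-type cyclins and their kinase moved the same way. Ccnb1, the cyclin that drives entry into mitosis, read 163, 188 and 197 TPM in TLSMG and 131, 131 and 146 in TLSMGC, a log2 difference of -0.42 (SE 0.08, adjusted p = 0.000785). Ccnb2 read 139, 149 and 147 TPM in TLSMG and 114, 108 and 110 in TLSMGC (log2 difference -0.38, adjusted p = 2.7e-05). In both cyclins the groups are apart. Cdk1, the mitotic kinase, read 92.4, 106 and 100 TPM against 81.7, 57.2 and 83.7, and its fall of 0.44 on the log2 scale (adjusted p = 0.0155) was not called without TLSMG replicate 2 (-0.39, adjusted p = 0.0586) or without TLSMGC replicate 2 (-0.26, adjusted p = 0.0585). Cdc20, which activates the anaphase-promoting complex, read 280, 304 and 311 TPM in TLSMG and 211, 197 and 216 in TLSMGC. Its log2 difference of -0.52 (SE 0.05) had an adjusted p of 3.68e-06, and no library of one group reached the other group. Ube2c, the ubiquitin-conjugating enzyme of the same complex, fell by 0.36 on the log2 scale.

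Aurka and Aurkb, the Aurora kinases of the spindle poles and of the centromere, fell by 0.30 (adjusted p = 0.00208) and 0.25 (adjusted p = 0.00578) on the log2 scale. With each library divided by its median-of-ratios factor they stood at -0.13 (adjusted p = 0.113) and -0.08 (adjusted p = 0.389), so neither call held. Plk1, the Polo kinase, fell by 0.34 (adjusted p = 0.0161) from 157, 180 and 184 TPM to 134, 121 and 157. The lowest TLSMG library and the highest TLSMGC library of Plk1 are equal at this rounding, and the call was lost in turn without TLSMG replicate 2 (-0.31), TLSMG replicate 3 (-0.29) and TLSMGC replicate 2 (-0.25). Of the spindle motors, Kif11, which slides microtubules apart, fell by 0.51 and Kif20a, a motor of cytokinesis, by 0.36. Cenpf, a kinetochore protein, fell by 0.71 (adjusted p = 0.0105) and was not called without TLSMGC replicate 3 (-0.51, adjusted p = 0.0544). The exceptions among the 20 were Bub1 (a spindle checkpoint kinase, -0.26, adjusted p = 0.0644) and Cenpe (a kinetochore motor, -0.31, adjusted p = 0.21). Cenpe read 45.8, 44.4 and 31.2 TPM in the TLSMGC libraries and 43.3, 53.8 and 52.8 in TLSMG, so the groups overlap.

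**Figure D2:**
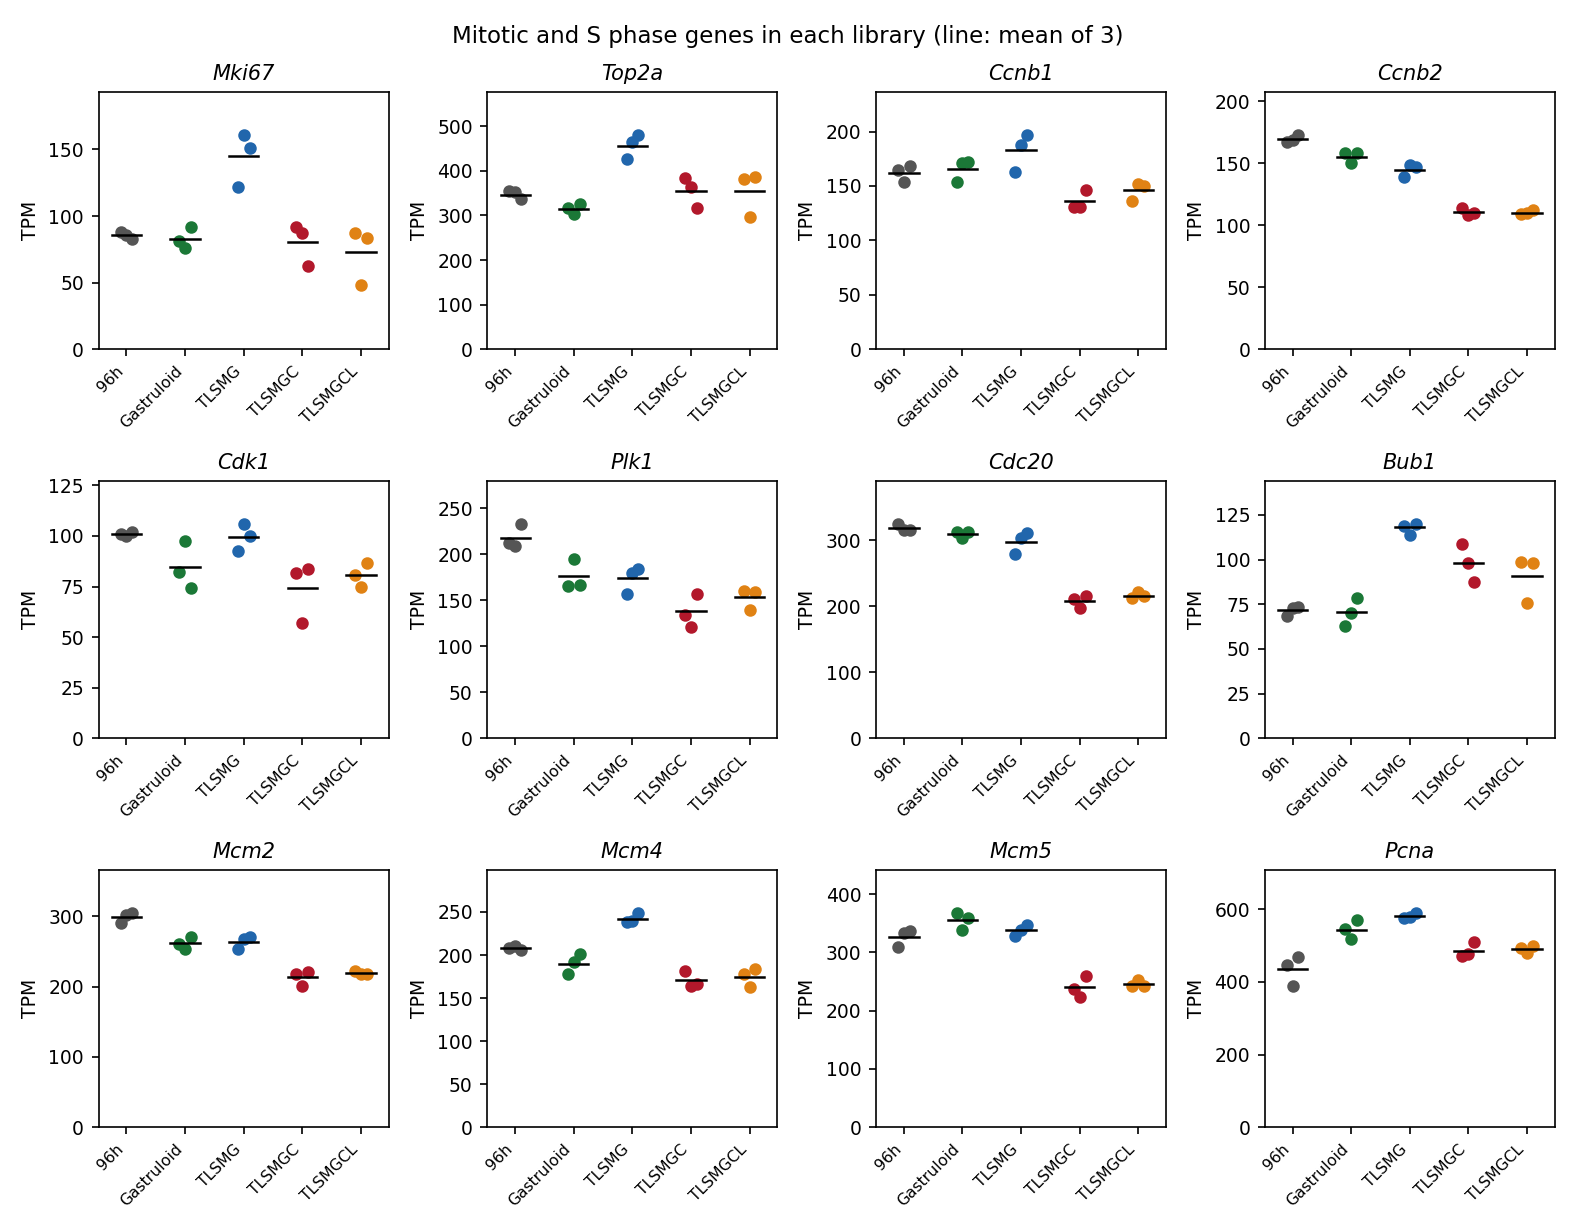
TPM in each of the 15 libraries (points; lines are means of 3 libraries) for 8 mitotic genes and 4 S phase genes, by group. Mki67 and Top2a are highest in TLSMG (122 to 161 and 426 to 481 TPM), Ccnb2 and Mcm2 are highest at 96h (167 to 173 and 291 to 305), and the TLSMGC and TLSMGCL points of Cdc20 and Mcm5 lie below those of the other 3 groups.

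S phase genes were lower in TLSMGC too, with 10 of 14 called lower than in TLSMG, none higher and all 14 differences negative (median -0.32). The helicase subunits moved together: Mcm5 read 329, 339 and 348 TPM in TLSMG and 237, 224 and 259 in TLSMGC, a log2 difference of -0.50 (SE 0.06, adjusted p = 1.77e-05). No library of one group reached the other. Mcm4 fell by 0.50, Mcm3 by 0.47, Mcm6 by 0.33, Mcm2 by 0.31 and Mcm7 by 0.28, so all 6 subunits on the list were called. Mcm2 read 253, 268 and 271 TPM in TLSMG and 218, 201 and 221 in TLSMGC (adjusted p = 0.000264). Rrm2 and Rrm1, the subunits of ribonucleotide reductase, fell by 0.49 and 0.30. Pcna, the sliding clamp, fell by 0.26 (adjusted p = 0.00548), from 577, 578 and 590 TPM to 471, 476 and 511.

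The S phase genes that were not called were Cdc6 (-0.28), Cdt1 (a helicase loader, -0.09), Gins2 (-0.40) and Tyms (-0.51). Tyms read 103, 53.9 and 53.4 TPM in TLSMG and 55.6, 101 and 54.7 in Gastruloid, so 1 library in each group stood far above the others. The deposited coverage, scaled to TPM units per library, did not jump: for Tyms it was 25.6, 25.1 and 26.2 in TLSMG and 26.8, 24.5 and 25.7 in Gastruloid. TPM per unit of scaled coverage spanned 2.02 to 4.15 for Tyms and 1.86 to 3.9 for Gins2, and it varied more than 1.3 times for 5 genes, the others being Cdt1, Cdc6 and Ccnd3. On scaled coverage, a measure added after the TPM values were seen, Tyms (-0.26, adjusted p = 0.00681), Cdc6 (-0.42, adjusted p = 0.000118) and Bub1 (-0.28, adjusted p = 0.043) were also lower in TLSMGC, which gave 33 genes lower in place of 30, beside 33.2% of all genes. For Cdt1 (-0.12) and Gins2 (-0.04) the scaled coverage gave no call.

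The direction of the mitotic and S phase classes did not turn with the scaling, and the counts did shrink. With median-of-ratios scaling, which sets the median of all genes to near 0, 12 of 20 mitotic genes (median -0.20) and 5 of 14 S phase genes (median -0.15) were lower in TLSMGC than in TLSMG and none higher, beside 18.0% of all genes lower. The 5 were Mcm3, Mcm4, Mcm5, Mcm6 and Rrm2. Besides the Aurora kinases, the mitotic genes no longer called were Birc5 (-0.07), Ccna2 (-0.06), Cdk1 (-0.26) and Plk1 (-0.16), and the S phase genes were Gins1 (-0.01), Mcm2 (-0.14), Mcm7 (-0.11), Pcna (-0.09) and Rrm1 (-0.12). After a correction for GC content and transcript length within each library, 14 mitotic and 6 S phase genes were lower, beside 19.3% of all genes. Top2a, called lower in TPM (426, 464 and 481 in TLSMG against 385, 364 and 317 in TLSMGC), lost its call there (-0.08, adjusted p = 0.137). Cdc20 stood at -0.35 under the first and -0.47 under the second, and Mki67 at -0.68 and -0.49.

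Of 36 further mitotic genes, 25 fell and none rose in TLSMGC against TLSMG (median -0.33), led by Aspm (a spindle pole protein, -0.62) and Kif23 (a motor of cytokinesis, -0.51). Of 30 further S phase genes, 17 fell and none rose (median -0.27), led by Clspn (a checkpoint adaptor, -0.54) and Gins3 (-0.51). All genes lower in this comparison made up 30.5%. With median-of-ratios scaling 6 of the 36 and 4 of the 30 fell and 1 S phase gene rose, beside 18.0% of all genes lower, and after the GC and length correction 11 and 9 fell while 1 and 2 rose, beside 19.3% lower. The large counts on these further lists thus turned on the scaling.

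The G1 genes did not move as 1 group in TLSMGC: Ccnd1 and Ccne1 fell, Ccnd3 and Cdkn1a rose, and the other 4 were not called. Ccnd1, cyclin D1 (chr7:144929931-144939925, minus strand, GRCm38), read 207, 229 and 221 TPM in TLSMG and 96.1, 108 and 106 in TLSMGC. The groups are far apart, with a log2 difference of -1.07 (SE 0.07, adjusted p = 6.76e-08) and a ratio of means of 0.473. Ccnd3, cyclin D3 (chr17:47505051-47599691, plus strand), read 29.9, 32.7 and 42.7 TPM in TLSMG and 78.4, 76.5 and 79.8 in TLSMGC, a log2 difference of 1.15 (SE 0.23, adjusted p = 0.00132). Its TPM stood at 8.12 to 11.5 times its scaled coverage, but on scaled coverage the difference was 1.29 (adjusted p = 0.000895). Ccnd2, cyclin D2 (chr6:127125162-127152193, minus strand), read 206, 257 and 266 TPM against 248, 230 and 212, and was not called (-0.07, adjusted p = 0.707). Ccne1, the cyclin that partners CDK2 at the start of S phase, read 94.1, 93.0 and 95.7 TPM in TLSMG and 68.3, 72.9 and 77.3 in TLSMGC (log2 difference -0.37, adjusted p = 0.000215). Ccne2 (-0.21), E2f1 (-0.17) and Cdkn1b (-0.02) were not called.

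Cdkn1a, which encodes the kinase inhibitor p21 (chr17:29090976-29100727, plus strand), had the largest difference of the 42. It read 11.6, 12.5 and 14.9 TPM in TLSMG and 82.9, 66.0 and 67.1 in TLSMGC. The lowest TLSMGC library lay far above the highest TLSMG library, and the log2 difference was 2.38 (SE 0.3, adjusted p = 3.71e-05), a ratio of means of 5.54. In TLSMGCL the libraries were uneven, at 33.6, 92.7 and 101 TPM, and the difference from TLSMG was 2.31 (adjusted p = 4.12e-05), or 2.81 (adjusted p = 7.77e-08) without TLSMGCL replicate 1. At 96h Cdkn1a read 26.0, 37.9 and 28.1 TPM and in Gastruloid 12.0, 12.8 and 11.9, so from 96h it fell by 1.24 in Gastruloid (adjusted p = 0.00491) and by 1.17 in TLSMG (adjusted p = 0.00609). Against 96h it rose by 1.22 in TLSMGC (adjusted p = 0.00546) and by 1.14 in TLSMGCL (adjusted p = 0.00826), where TLSMGCL replicate 1 lay inside the 96h range. That last call was lost in a fit of the 2 groups alone (adjusted p = 0.0633).

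**Figure D3:**
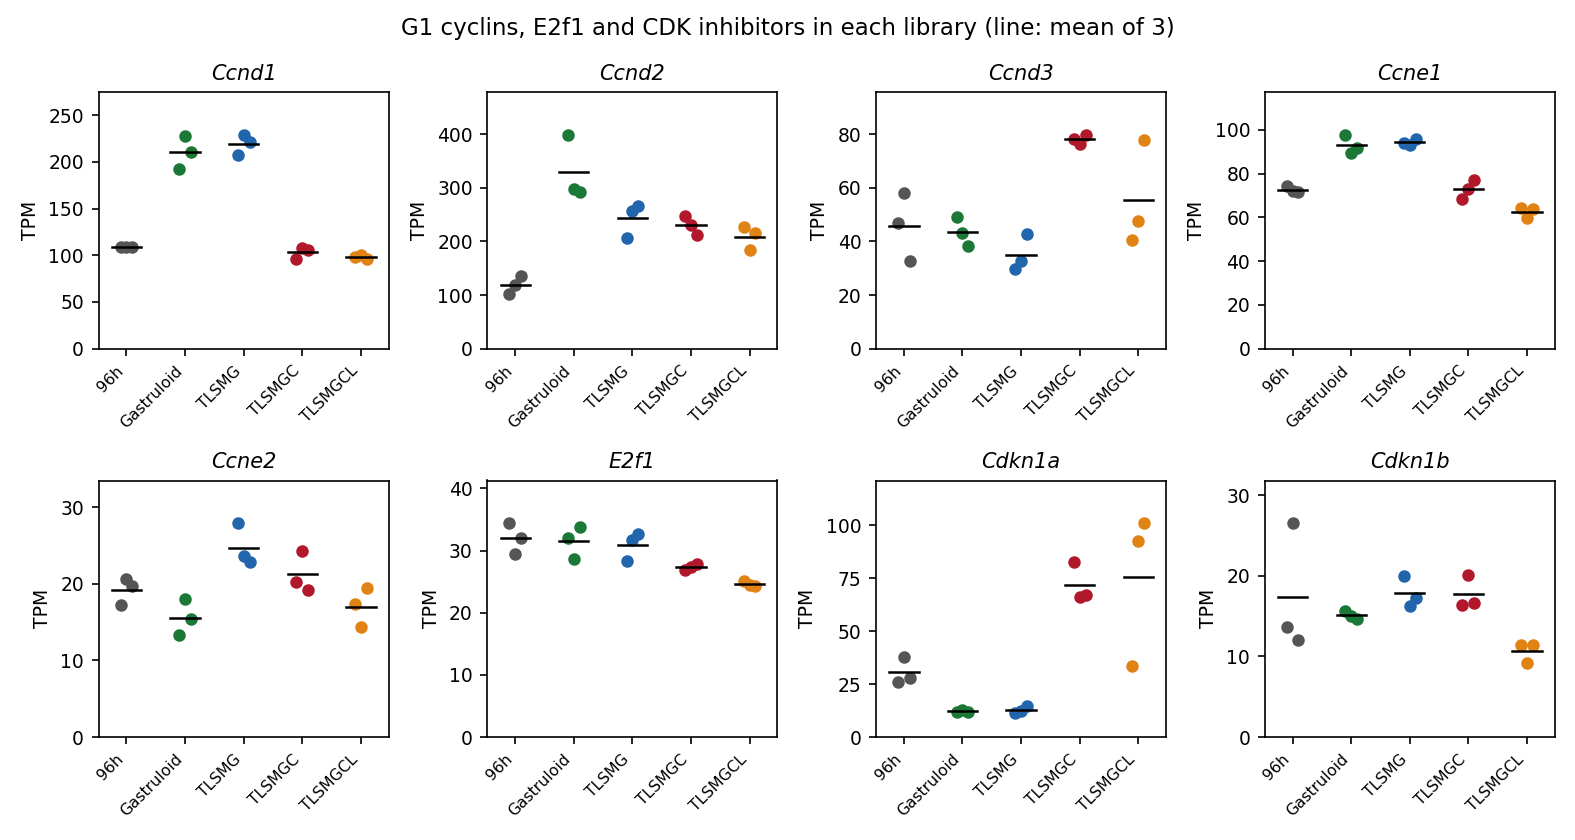
TPM of the 8 G1 genes in each of the 15 libraries (points; lines are means of 3 libraries), by group. Cdkn1a lies at 11.6 to 14.9 TPM in TLSMG and 66.0 to 82.9 in TLSMGC, Ccnd1 is near 109 at 96h and 192 to 229 in Gastruloid and TLSMG, and Cdkn1a in TLSMGCL has 1 library at 33.6 and the others at 92.7 and 101.

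Cdkn1a is a classic target of p53. Of 14 other p53 targets tested (of 15 listed), 2 rose and 3 fell in TLSMGC against TLSMG, beside 10.4% and 30.5% of all genes. Whether p53 had a part in the Cdkn1a difference was not tested. Phlda3, an inhibitor of AKT signalling, rose by 1.88 (adjusted p = 4.32e-07), with means ± SD of 18.6 ± 1.84 TPM in TLSMG and 71.3 ± 11.1 in TLSMGC (n = 3 each), and Zmat3 rose by 0.35. Trp53inp1 (-1.42) and Btg2 (-0.53), which restrain proliferation, fell. Phlda3 was at 66.7 ± 14.1 TPM at 96h, 18.4 ± 0.985 in Gastruloid and 86.4 ± 6.56 in TLSMGCL.

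Of 25 further genes of G1 and its checkpoints tested (of 26 listed), 13 fell and 2 rose in TLSMGC against TLSMG, beside 30.5% and 10.4% of all genes, and 8 fell and 5 rose with median-of-ratios scaling. Cdkn1c, which encodes the inhibitor p57, fell by 1.98 (adjusted p = 5.23e-06), from 338 ± 42.9 TPM to 84.9 ± 6.08, the reverse of Cdkn1a. Mycn, a transcription factor that drives growth and division, fell by 1.19, from 80.5 ± 2.88 TPM to 34.8 ± 2.34. Cdk6, a partner of the D-type cyclins, rose by 0.58 (adjusted p = 0.00301) and the inhibitor gene Cdkn2c by 0.50, from 0.913 ± 0.215 TPM to 1.69 ± 0.138. Cdkn1c was at 60.4 ± 24.7 TPM at 96h and 483 ± 50.1 in Gastruloid.

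The make-up of the D-type cyclins was described by the share of each gene in their summed TPM, a scale on which no difference could pass the threshold. Ccnd1 gave 44.2% ± 2.48 (SD, n = 3) of the summed D-type TPM in TLSMG and 25.2% ± 2.14 in TLSMGC, and Ccnd3, whose TPM stood well above its scaled coverage, gave 7.04% ± 0.908 and 19.0% ± 0.898. The changes of -19.0 and 12.0 percentage points left no overlap between libraries, for which the exact permutation test gives two-sided p = 0.1, the smallest that 3 against 3 libraries allow, and 0.16 after Benjamini-Hochberg adjustment over 24 such tests. The summed D-type TPM, which was not tested, was 273 ± 14.2 at 96h, 584 ± 50.8 in Gastruloid, 497 ± 47.5 in TLSMG, 412 ± 12.6 in TLSMGC and 362 ± 28.9 in TLSMGCL. At 96h Ccnd3 gave 16.8% ± 4.45, and in Gastruloid 7.42% ± 0.314. In every group Ccnd2 gave the largest mean share of TPM, from 43.3% at 96h to 57.6% in TLSMGCL. Ccnd1 was the larger in 96h replicate 1 and TLSMG replicate 1. On scaled coverage the order was the reverse, with the mean of Ccnd1 above that of Ccnd2 in every group. These means were 83.7 and 39.6 at 96h, 163 and 110 in Gastruloid and 169 and 82.5 in TLSMG. They were 79.8 and 77.7 in TLSMGC and 76.7 and 70.4 in TLSMGCL. TPM per unit of scaled coverage was 1.27 to 1.31 for Ccnd1 and 2.91 to 3.07 for Ccnd2.

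**Figure D4:**
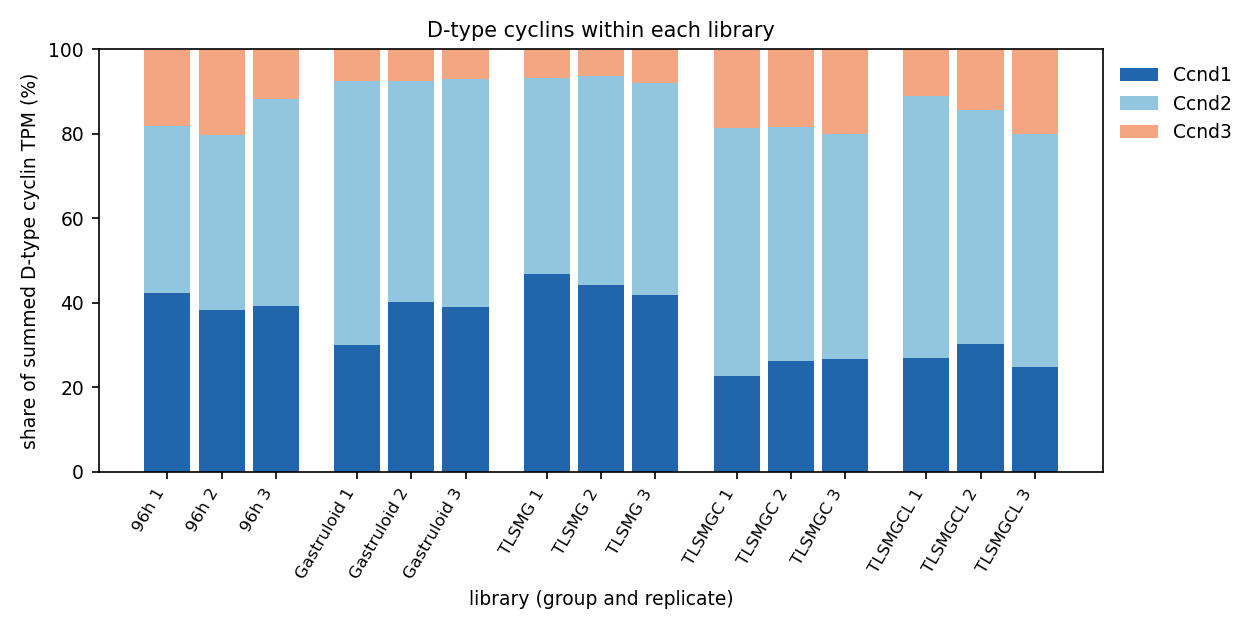
Share of each D-type cyclin gene in the summed TPM of the 3 genes (stacked bars, %) in each of the 15 libraries. The Ccnd1 share averages 44.2% in TLSMG and 25.2% in TLSMGC, and the Ccnd3 share 7.04% and 19.0%.

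With LDN added to CHIR99021 and Matrigel, no cell cycle gene was called different from TLSMGC. The class medians were -0.01 for mitotic, 0.02 for S phase and -0.18 for G1 genes, against -0.039 over all genes, and the standard error of a gene's difference had a median of 0.07. At an unadjusted p under 0.05 there were 5 genes, Ccnd3, Ccne1, Ccne2, Cdkn1b and Aurkb, of which the first 4 are G1 genes. The share of all genes at that unadjusted threshold is not given here, so the count is not read as a result. Of the 8 G1 genes, 7 had a lower mean TPM in TLSMGCL, where the median of all genes was lower too (-0.039). For Cdkn1a the mean was 75.7 TPM in TLSMGCL and 72.0 in TLSMGC, while the log2 difference was -0.07 (SE 0.3, adjusted p = 0.949), with TLSMGCL replicate 1 below every TLSMGC library and the other 2 above. Cdkn1b, which encodes p27, had the largest difference of the G1 genes, with 16.4, 20.1 and 16.6 TPM in TLSMGC and 11.4, 9.21 and 11.4 in TLSMGCL (log2 difference -0.68, SE 0.21, adjusted p = 0.161). The groups do not overlap, as was the case for 10.3% of all genes in that direction. By size, Ccnd3 (-0.55, SE 0.23, adjusted p = 0.32), Ccne2 (-0.31, SE 0.13, adjusted p = 0.344) and Ccne1 (-0.21, SE 0.06, adjusted p = 0.104) came next. On scaled coverage none was called either.

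Against TLSMG, TLSMGCL showed lower values for 16 of 20 mitotic genes, 10 of 14 S phase genes and 5 of 8 G1 genes, with class medians of -0.38, -0.29 and -0.42 against -0.184 over all genes. Mki67 read 86.9, 47.9 and 83.5 TPM and fell by 1.02 (adjusted p = 0.000999). Replicate 2, the library with the lowest median-of-ratios factor, was the lowest of the TLSMGCL libraries for many mitotic genes. Among them were Mki67, Top2a (381, 297 and 386 TPM), Cenpf, Cenpe, Kif11 and Bub1. For Ccnb1 (136, 152 and 150 TPM), Cdc20, Aurkb and Ube2c replicate 2 was the highest. Aurkb, Cdk1, Cenpe and Plk1 were not called (adjusted p from 0.0603 to 0.175). Rrm2 fell by 0.57 and Mcm4 by 0.47, the S phase genes with the largest called differences. Ccnd1 read 97.9, 100 and 96.5 TPM and fell by 1.15 (adjusted p = 3.17e-08), Ccne1 by 0.58, Ccne2 by 0.52 and Cdkn1b by 0.69 (adjusted p = 0.0155). The Cdkn1b fall was not called without TLSMG replicate 1 (-0.62) or TLSMGCL replicate 2 (-0.60). With median-of-ratios scaling neither Ccne2 (-0.31, adjusted p = 0.0672) nor Cdkn1b (-0.49, adjusted p = 0.0765) was called. After the GC and length correction they stood at -0.13 (adjusted p = 0.311) and -0.37 (adjusted p = 0.187). Ccnd3 was called higher (0.60, adjusted p = 0.0452) on 40.4, 47.6 and 78.0 TPM. It was not called without any 1 of TLSMG replicate 1 (0.50), TLSMG replicate 2 (0.56), TLSMGCL replicate 2 (0.68) and TLSMGCL replicate 3 (0.33, adjusted p = 0.204). With median-of-ratios scaling 15 of the 42 were lower in place of 31, beside 19.2% of all genes. After the GC and length correction 23 called differences held, 8 lost their call, among them Top2a (-0.01) and Bub1 (-0.06), and 2 reversed. Of all genes, 19.7% were called lower and 18.8% higher after that correction. Among the further lists, beside 35.6% of all genes lower, 26 of 36 mitotic genes fell (Spc25, of the kinetochore, by 1.01), 21 of 30 S phase genes fell (Hells, a chromatin remodeller, by 0.74), and 15 of 25 G1 and checkpoint genes fell (Cdkn1c by 1.93, Mycn by 1.53) while Cdkn2c (0.58) and E2f8 (0.26) rose. With median-of-ratios scaling the falls numbered 11, 7 and 10, and 2, 2 and 3 genes of these lists rose.

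The comparison of TLSMG with Gastruloid asks what Matrigel did without further CHIR99021, and 10 of 20 mitotic genes rose with it and none fell (median 0.20 against 0.134 over all genes). After a correction for GC content and transcript length, only Bub1 and Kif11 of these 10 were still called. Cenpe read 27.1, 24.3 and 27.7 TPM in Gastruloid and 43.3, 53.8 and 52.8 in TLSMG, a log2 difference of 0.89 (SE 0.19, adjusted p = 0.00272). The groups are apart. Mki67 read 80.9, 76.2 and 91.8 TPM in Gastruloid and rose by 0.79 in TLSMG (SE 0.2, adjusted p = 0.00678), and Cenpf rose by 0.84. Bub1 read 62.7, 69.9 and 78.6 TPM in Gastruloid and 119, 114 and 120 in TLSMG (log2 difference 0.74, adjusted p = 0.000306). Kif11 rose by 0.72, Top2a, the topoisomerase that untangles sister chromatids, by 0.53 (adjusted p = 0.000961), Tpx2, which activates Aurora A, by 0.31, and Kif20a, Bub1b and Ccna2 by 0.20 to 0.26. The Bub1b call was lost without Gastruloid replicate 1 (0.20) or TLSMG replicates 2 or 3 (0.18 and 0.16). Ccnb1 (0.14), Cdk1 (0.24), Plk1 (-0.02), Cdc20 (-0.05) and Ccnb2 (-0.10) were not called.

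Among S phase genes Mcm4 (0.35), Rrm2 (0.23) and Rrm1 (0.20) rose with Matrigel and Mcm7 fell by 0.20 (adjusted p = 0.034). The Mcm7 call was lost in turn without Gastruloid replicates 1, 2 or 3 (-0.22, -0.21 and -0.19) and without TLSMG replicates 1 or 2 (-0.15 and -0.19). Mcm2 (0.01) and Pcna (0.10) were not called. Among G1 genes Ccne2 rose by 0.64 (adjusted p = 0.00228), from 13.3, 18.0 and 15.4 TPM in Gastruloid to 27.9, 23.6 and 22.8. After the correction for GC content and transcript length, the Ccne2 difference was not called and its sign reversed. Ccnd2 fell by 0.43 (adjusted p = 0.024), from 399, 298 and 292 TPM to 206, 257 and 266. The Ccnd2 groups do not overlap, but the fall was not called when Gastruloid replicate 1 was left out (-0.29, adjusted p = 0.116), nor when TLSMG replicate 1 was (-0.32, adjusted p = 0.101). Ccnd1 (0.06), Ccne1 (0.02), Cdkn1a (0.07) and Cdkn1b (0.22) were not called.

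The difference between TLSMG and Gastruloid varied with base composition. Across 14283 genes, which are not independent replicates, the log2 difference correlated with GC content at r = -0.41, while between TLSMGC and TLSMG r was 0.04. The 14 cell cycle genes called higher had a median longest transcript of 4019.5 bases and 44.4% GC, the 2 called lower 4646.0 bases and 50.2% GC, and the 26 that were not called 3044.5 bases and 51.6% GC. After the correction only Bub1 (0.27, adjusted p = 0.00581) and Kif11 (0.23, adjusted p = 0.0192) were higher, beside 13.0% of all genes. The correction left 6 lower, Ccnd2 (-0.81), Mcm7 (-0.21), Rrm1 (-0.28), Birc5 (-0.15), Ccnb2 (-0.13) and Nusap1 (-0.25), beside 10.6%. Mki67 stood at 0.29 (adjusted p = 0.0705) and Cenpe at 0.30 (adjusted p = 0.0517). With median-of-ratios scaling 9 were higher and 8 lower (mitotic 7 and 3, S phase 1 and 4, G1 1 and 1), beside 19.3% and 18.1%, so the split between higher and lower turned on the scaling.

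**Figure D5:**
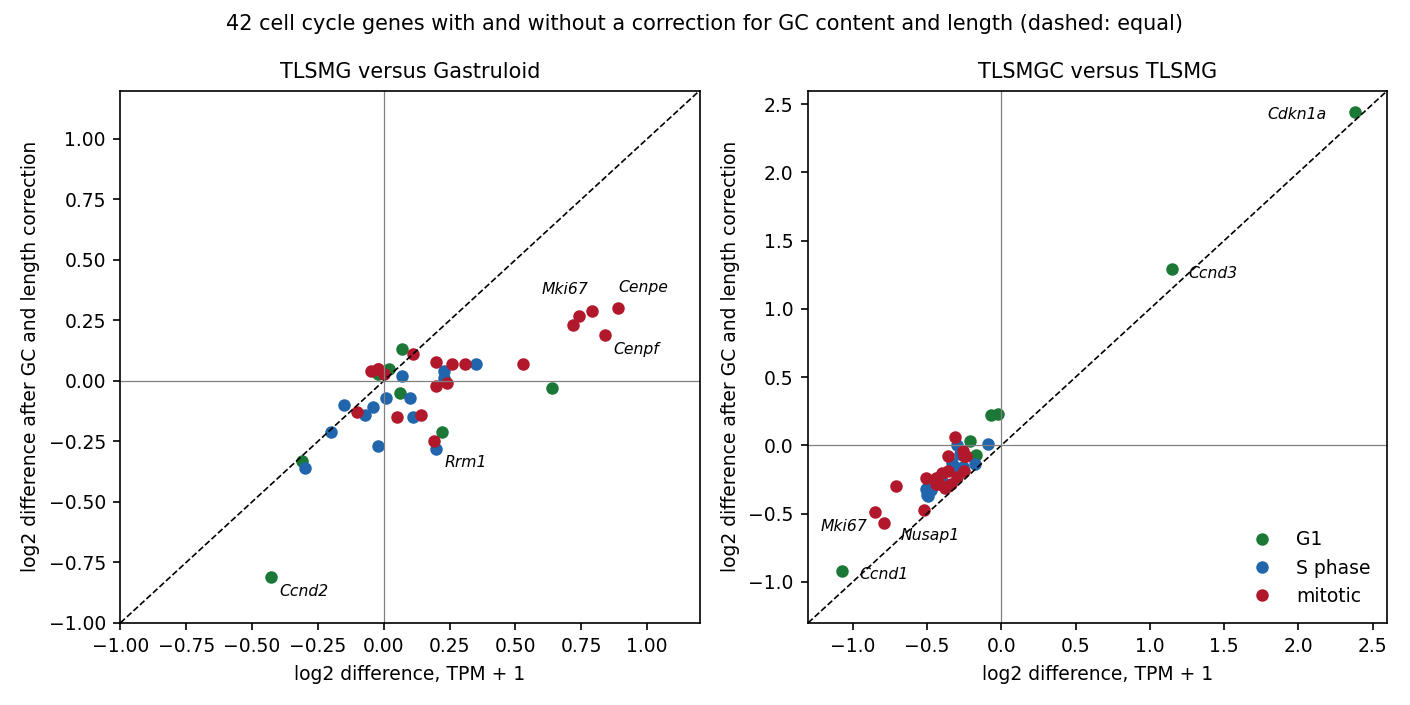
Log2 difference of the 42 cell cycle genes before (x axis) and after (y axis) the correction for GC content and transcript length, for TLSMG versus Gastruloid (left) and TLSMGC versus TLSMG (right), coloured by class, with a dashed line of equality. On the left Cenpe goes from 0.89 to 0.30 and Mki67 from 0.79 to 0.29, and on the right Cdkn1a stays near the line (2.38 and 2.44) while Mki67 goes from -0.85 to -0.49.

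Of the further lists, 20 of 36 mitotic genes rose and none fell in TLSMG against Gastruloid, led by Ncapg (1.02) and Smc4 (0.93), both of the condensin complex. Of 30 S phase genes 9 rose (Hells 1.10, the polymerase gene Pola1 0.65) and 2 fell (Gins4 -0.20, Pold1 -0.19). Of 25 G1 and checkpoint genes 10 rose and none fell, led by Lin54 (of the DREAM complex, which binds CHR elements, 0.75) and Cdk6 (0.60). Of 14 p53 targets 6 rose and none fell, led by Eda2r (0.76) and Trp53inp1 (0.60). These counts stand beside 31.5% of all genes higher and 7.87% lower, so the share of S phase genes that rose was near the background. With median-of-ratios scaling 13 mitotic genes rose and 7 fell, 5 S phase genes rose and 6 fell, 8 G1 and checkpoint genes rose and 4 fell, and 3 p53 targets rose and 2 fell. After the GC and length correction the counts were 7 and 9, 3 and 5, 6 and 1, and 1 and 1 in the same order. Hells (0.32), Ncapg (0.22) and Smc4 (0.36) were still called higher after the correction, and Pola1 (0.09), Lin54 (0.25) and Cdk6 (0.03) were not.

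From 96h to the Gastruloid at 120 h, the D-type cyclins Ccnd1 and Ccnd2 rose, Cdkn1a fell and most mitotic and S phase genes were not called. Ccnd2 read 102, 118 and 135 TPM at 96h and 399, 298 and 292 in Gastruloid, a log2 difference of 1.46 (SE 0.14, adjusted p = 2.11e-06) and a ratio of means of 2.78. Ccnd1 read 109 TPM in all 3 libraries at 96h and 192, 228 and 211 in Gastruloid (log2 difference 0.94, SE 0.07, adjusted p = 1.06e-07). Neither gene overlaps between the groups. Ccne1 rose by 0.35 (adjusted p = 0.000274), Pcna by 0.33 (adjusted p = 0.00112) and Gins1, of the active helicase, by 0.42 (adjusted p = 0.000164). Gins2 was called higher by 0.92 (adjusted p = 0.0312) on 120, 48.8 and 79.7 TPM against 42.7, 43.0 and 36.4. The Gins2 call was lost without any 96h replicate (0.96, 0.96 and 0.84) or Gastruloid replicates 1 or 3 (0.61 and 0.90), and on scaled coverage it was 0.55 (adjusted p = 0.00167).

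Among mitotic genes Birc5 (survivin) rose by 0.18 and Plk1 (-0.31), Tpx2 (-0.23), Kif20a (-0.22) and Ccnb2 (-0.13) fell, so 15 of 20 were not called, with a class median of -0.05 against 0.004 over all genes. Plk1 read 212, 209 and 233 TPM at 96h and 165, 195 and 167 in Gastruloid. Without single libraries these calls were unsteady: Birc5 was lost without 96h replicate 2 (0.15), Plk1 without 96h replicate 3 (-0.26) or Gastruloid replicates 1 or 3 (-0.27 and -0.28), and Tpx2 without 96h replicates 1 or 2 (-0.21 and -0.23) or Gastruloid replicate 2 (-0.21). Kif20a was lost without 96h replicate 1 or Gastruloid replicate 2 (-0.20 in each), and Ccnb2 with any 1 of the 6 libraries left out (-0.10 to -0.14). Mki67 (-0.05), Top2a (-0.14), Ccnb1 (0.03) and Cdk1 (-0.26) were not called, nor was Cdkn1b (-0.11), where 96h replicate 2 at 26.5 TPM stood above the others at 13.7 and 12.0. Mcm2 fell by 0.19 (adjusted p = 0.00734). Of the further lists, beside 20.8% of all genes higher and 20.5% lower, 5 mitotic genes rose (Cdc25b 0.37, Nuf2 0.37) and 5 fell (Anln -0.45, Espl1 -0.43), 7 S phase genes rose (Tk1 0.70, Rfc3 0.51) and 5 fell (Orc1 -0.55, Ung -0.42), and 3 G1 and checkpoint genes rose (Cdkn1c 3.04, E2f2 1.43) and 9 fell (Mycn -1.15, Cdk6 -1.02). Of p53 targets 1 rose (Bbc3 0.63) and 7 fell (Phlda3 -1.78, Tnfrsf10b -1.25). A link of these with the fall of Cdkn1a was not tested.

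From 96h to TLSMG, 10 mitotic genes rose (median 0.20 against 0.143 over all genes), led by Cenpf (0.86, adjusted p = 0.0026), Mki67 (0.74, adjusted p = 0.00728) and Bub1 (0.71), and Plk1 (-0.33) and Ccnb2 (-0.22) fell. Top2a read 354, 352 and 336 TPM at 96h and 426, 464 and 481 in TLSMG (log2 difference 0.39, adjusted p = 0.00388). After the GC and length correction Top2a stood at 0.08 (adjusted p = 0.143), and the calls of Kif11 (0.13), Nusap1 (0.05), Birc5 (0.07) and Cenpe (0.10) were lost as well. Ccnb1 (0.17) and Cdk1 (-0.02) were not called. Among S phase genes Pcna rose by 0.42, Gins1 by 0.39, Mcm4 by 0.22, Rrm2 by 0.20 and Rrm1 by 0.16, and Mcm2 fell by 0.18. The calls of Mcm4 and Rrm2 were lost with median-of-ratios scaling (0.04 and 0.02) and after the GC and length correction (0.02 in each). Ccnd2 rose by 1.03, Ccnd1 by 1.00, Ccne1 by 0.37 and Ccne2 by 0.35, and Cdkn1b (0.11) was not called. Cenpe rose by 0.49 on an adjusted p of 0.0491, and the call was lost without any 1 of 96h replicates 1, 2 or 3 (0.49, 0.50 and 0.48) and TLSMG replicates 2 or 3 (0.44 and 0.45). Ccne2 was lost without any 96h replicate (0.28, 0.40 and 0.37) or TLSMG replicates 1 or 2 (0.26 and 0.38), Rrm1 without 96h replicates 2 or 3 (0.14 and 0.16) or TLSMG replicates 2 or 3 (0.15 and 0.13), and Plk1 without 96h replicate 3 (-0.28) or TLSMG replicate 1 (-0.26). With median-of-ratios scaling 13 of the 42 were higher and 11 lower, beside 22.0% and 23.4% of all genes, where Mki67 (0.56), Ccnd1 (0.82) and Ccnd2 (0.85) were still called higher and Rrm1 (-0.02), Birc5 (0.05), Cenpe (0.32) and Ccne2 (0.18) were not. After the GC and length correction 10 were higher and 7 lower, beside 22.2% and 23.0%, and Rrm1 (-0.17) and Ccne2 (-0.24) were not called. Of the further lists, beside 33.5% of all genes higher and 12.5% lower, 17 mitotic genes rose and 2 fell, 12 S phase genes rose and 2 fell, 10 G1 and checkpoint genes rose and 3 fell (Cdkn1c 2.53, E2f2 1.26 and Mycn -0.93 the largest), and of p53 targets 2 rose and 4 fell (Trp53inp1 0.76, Phlda3 -1.77). With median-of-ratios scaling 10 mitotic genes rose and 4 fell, 8 S phase genes rose and 8 fell, and 5 G1 and checkpoint genes rose and 6 fell, and of p53 targets 2 rose and 8 fell.

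Against 96h, 11 of 20 mitotic genes and 9 of 14 S phase genes fell in TLSMGC, and 8 and 7 fell in TLSMGCL, in comparisons whose all-gene medians were near 0 (0.016 for TLSMGC and -0.023 for TLSMGCL). Ccnb2 read 167, 169 and 173 TPM at 96h, 114, 108 and 110 in TLSMGC and 109, 110 and 112 in TLSMGCL, a fall of 0.61 in each (adjusted p = 3e-07 and 2.56e-07). Plk1 read 134, 121 and 157 TPM in TLSMGC and fell by 0.67, and in TLSMGCL it fell by 0.51. Cdc20 read 325, 315 and 316 TPM at 96h and fell by 0.61 in TLSMGC and 0.56 in TLSMGCL. For these 3 genes every treated library lay below every 96h library. Ccnb1 fell by 0.25 in TLSMGC and was not called in TLSMGCL (-0.15), and Cdk1 fell by 0.46 and was not called (-0.32). Mki67 (-0.11 and -0.28) and Top2a (0.03 and 0.02) were not called in either, and Bub1 rose by 0.44 (adjusted p = 0.00483) and 0.33 (adjusted p = 0.026). The Ccnb1 fall in TLSMGC was lost without 96h replicates 1 or 3 (-0.24 and -0.23) or TLSMGC replicates 1 or 2 (-0.23 in each). The Bub1 rise in TLSMGCL was lost without 96h replicates 1 or 2 (0.30 and 0.34) or TLSMGCL replicates 1 or 3 (0.27 in each). Whether TLSMGC and TLSMGCL differ in these genes is given by their own comparison, in which none was called.

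Mcm3, the S phase gene with the largest called fall in both, went from 311, 304 and 313 TPM at 96h to 218, 204 and 225 in TLSMGC (-0.52, adjusted p = 6.7e-06) and to 222, 218 and 213 in TLSMGCL (-0.50, adjusted p = 8.96e-06). Mcm2 fell by 0.49 and 0.45, and Mcm5 by 0.45 and 0.41. Mcm7 fell by 0.31 in TLSMGC and was not called in TLSMGCL (-0.18, adjusted p = 0.0525). Gins1 rose by 0.20 in TLSMGC, and Pcna, at 447, 389 and 468 TPM at 96h, was at 471, 476 and 511 in TLSMGC (0.16, adjusted p = 0.0561) and rose by 0.18 in TLSMGCL (adjusted p = 0.0421). The Pcna call was lost without 96h replicates 1 or 2 (0.20 and 0.10) or any TLSMGCL replicate (0.17, 0.19 and 0.16). The Gins1 call was lost without 96h replicates 1 or 3 (0.20 and 0.17) or TLSMGC replicates 1 or 3 (0.18 and 0.19). Ccnd2 rose by 0.96 in TLSMGC and 0.81 in TLSMGCL, while Ccnd1 (-0.08 and -0.15) was not called. E2f1 fell by 0.21 and 0.36, the first of which was lost without 96h replicates 1 or 3 (-0.16 and -0.21) or any TLSMGC replicate (-0.20, -0.21 and -0.23). Ccnd3 rose by 0.80 in TLSMGC (adjusted p = 0.013; 0.58 and adjusted p = 0.0649 without 96h replicate 3) and was not called in TLSMGCL (0.25). Ccne1 (0.00) was not called in TLSMGC and fell by 0.21 in TLSMGCL. Cdkn1b (0.10) was not called in TLSMGC and fell by 0.58 in TLSMGCL (adjusted p = 0.0408), a call lost without 96h replicate 2 (-0.25, adjusted p = 0.143) and in turn without TLSMGCL replicates 1, 2 and 3 (-0.63, -0.49 and -0.62). Of the further lists, in TLSMGC and TLSMGCL in turn 7 and 4 mitotic genes rose and 10 and 10 fell, 4 and 2 S phase genes rose and 10 and 10 fell, 4 and 3 G1 and checkpoint genes rose and 3 and 5 fell, and 0 and 3 p53 targets rose and 5 and 3 fell. All genes higher made up 20.6% and 17.4%, and all genes lower 20.1% and 22.1%. Mycn fell by 2.11 and 2.45, from 155 ± 22.6 TPM at 96h to 34.8 ± 2.34 and 27.3 ± 0.22.

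Spread within groups differed by class. The coefficient of variation over 3 libraries had a median of 3.2% (96h) to 7.1% (TLSMGCL) for mitotic genes and of 3.4% to 5.6% for S phase genes, and of 7.1% to 11.3% for G1 genes. The widest were Cdkn1a in TLSMGCL (48.4%), Cdkn1b at 96h (45.5%), Gins2 in Gastruloid and TLSMG and Tyms in both. Genes on the other strand overlap several of the 42, among them Mcm7 (Cops6 and Ap4m1), Ccnd3 (Bysl), Ccne2 (Ints8), Kif20a (Cdc23), Ccna2 (Exosc9), Cdc20 (Elovl1), Nusap1 (Oip5), Gins2 (Gse1) and Ccnd1 (Oraov1). The libraries were stranded per the labels, but whether strand was used in the abundance estimates is not given in the sources used here, so reads of these partners may be included.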

How the data were processed

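Bulk RNA sequencing of 15 libraries, 3 from each of 5 groups, was used. Per the submitters' processing notes, reads were handled with cutadapt 2.4, STAR 2.7.3a and StringTie 2.0. The StringTie gene tables list 54446 gene IDs, of which 54409 matched GENCODE release 21 for mouse, on GRCm38. The authors deposited TPM values, which sum to one fixed total per library. Per the file headers, each table also holds the authors' FPKM, a length-scaled fragment abundance, and their coverage signal, the mean read depth over a gene. Lines of one gene ID (7 to 13 repeated lines per table) were summed. No read counts were used, so no counting intervals could be given, and depth is known only as coverage per unit of FPKM. The series also lists 5 single-cell samples, which were not analysed here.

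The limma package 3.58.1 (R 4.3.3) was applied to log2(TPM + 1), a scale that understates changes of low genes. Genes whose TPM averaged 1 or more entered 1 model of the 5 groups with a variance trend. P-values are two-sided and adjusted by Benjamini-Hochberg within each comparison over all 14290 genes, with a threshold of 0.05. The fit was tested on simulated data. Tables were handled in Python 3.11.15 with numpy 2.4.6, pandas 2.3.3, scipy 1.17.1 and matplotlib 3.10.9. Alternatives were a pseudocount of 0.1, no filter, a mean TPM of at least 5, median-of-ratios scaling, FPKM in place of TPM, a fit of the 2 groups alone, a replicate block, a correction for GC content and transcript length, and leaving out each library. Coverage scaled to TPM units was added after the data were seen. The 42 genes, the further lists and the tests were chosen with earlier results of these data known. In each comparison and class the gene with the largest called difference in each direction was named, with up to 2 genes per direction from each further list. A set of 11 genes was planned to be given whatever they did, but some of them are left out in some comparisons. The 11 were Mki67, Top2a, Ccnb1, Cdk1, Mcm2, Pcna, Ccne1, Ccnd1, Ccnd2, Cdkn1a and Cdkn1b. Other cell cycle genes were named freely. Replicate numbers did not pair the samples: the deviations of same-numbered libraries from their group means correlated at -0.181 to 0.104 over 30 pairs.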

Additional observations from a re-analysis of the deposited data

How the results depend on the processing

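Of 165 called differences of single cell cycle genes, the call was lost or the sign reversed for 1 with a pseudocount of 0.1, 1 with a mean TPM of at least 5, 2 with scaled coverage, 6 with the replicate block, 11 without a filter, 14 in fits of the 2 groups alone, 30 with FPKM, 40 with median-of-ratios scaling (2 of them reversed) and 44 with the GC and length correction (7 reversed). The cause of these losses was not tested. Leaving out 1 library lost 109 of 990 calls and reversed none. Without a filter, TLSMGCL against 96h had 2 genes higher, TLSMGCL against TLSMG 1 higher and TLSMG against Gastruloid 0 lower. In fits of the 2 groups alone these were 1, 1 and 1. The shares of all genes without a filter, in fits of 2 groups, with the replicate block or with a library left out are not given here. Those counts are thus not read as results. With median-of-ratios scaling, TLSMG against 96h had 11 lower, beside 23.4% of all genes, and TLSMG against Gastruloid 9 higher and 8 lower, beside 19.3% and 18.1%. TLSMGC against TLSMG had 19 lower, beside 18.0%, and TLSMGCL against TLSMG 15 lower, beside 19.2%. With FPKM, Gastruloid against 96h had 12 higher and 3 lower, beside 28.0% and 16.8% of all genes. TLSMG against Gastruloid had 8 higher and 10 lower, beside 20.1% and 20.3%. With the GC and length correction, Gastruloid against 96h had 12 higher, beside 21.6% of all genes, and TLSMG against 96h 10 higher and 7 lower, beside 22.2% and 23.0%. TLSMG against Gastruloid had 2 higher and 6 lower, beside 13.0% and 10.6%. The replicate block left the counts within 1.5 times except in TLSMGCL against TLSMG, where 1 gene was higher in place of 2, and 37 of 42 genes differed among the 5 groups. The block with the GC and length correction gave 11 higher in Gastruloid against 96h, 10 higher in TLSMG against 96h, 2 higher and 4 lower in TLSMG against Gastruloid and 18 lower in TLSMGCL against TLSMG.

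Signs reversed in these cases, each without a call except Rrm1 in TLSMG against Gastruloid. In TLSMG against 96h, Rrm1 stood at -0.02 with median-of-ratios scaling, and Rrm1 at -0.17 and Ccne2 at -0.24 with the GC and length correction, with and without the block. In TLSMG against Gastruloid, the correction, with and without the block, gave Ccna2 -0.02, Ccne2 -0.03 and Rrm1 -0.28, the last called lower (limma, adjusted p = 0.0198, or 0.0362 with the block). In TLSMGCL against TLSMG, Birc5 stood at 0.04 with median-of-ratios scaling and at 0.03 with the correction, and Rrm1 at 0.09 with the correction, again with and without the block.

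With each library left out, genes higher and lower ranged from 5 to 7 and from 3 to 5 in Gastruloid against 96h, 16 to 20 and 3 to 5 in TLSMG against 96h, 4 to 6 and 16 to 20 in TLSMGC against 96h, 2 to 4 and 15 to 17 in TLSMGCL against 96h, 13 to 16 and 0 to 2 in TLSMG against Gastruloid, 2 to 2 and 27 to 32 in TLSMGC against TLSMG, and 1 to 2 and 29 to 32 in TLSMGCL against TLSMG. They stayed at 0 and 0 in TLSMGCL against TLSMGC, and 37 to 39 genes differed among the 5 groups.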
